A study of Arabidopsis thaliana with 16 samples.

Results

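The shoot apex was compared directly with the cotyledon in Arabidopsis thaliana seedlings that had received 1 h of white light after growth in darkness. The comparison uses 4 of the 16 arrays of a study of de-etiolation, chosen by tissue and time as labelled: 2 of shoot apex and 2 of cotyledon. It asks how far the tissues differ at that time, and not how far either responded to light. All seedlings were Landsberg erecta, an accession with a mutation in the receptor kinase gene ERECTA. Seeds were stratified for 3 days at 4 °C, given 30 min of white light at 100 µmol m-2 s-1 to start germination, and kept for 3 days in the dark at 21 °C on medium without sucrose; the apex and cotyledon groups then both received 1 h of light. The apex samples are slices cut just under the meristem and at the cotyledon bases, so they hold the meristem with its first leaf primordia and adjoining tissue. The cotyledon samples lack petiole and tip. Each seedling gave 1 tissue, and each sample pooled material of several plates and experiments, with about 1500 seedlings at 72 h of light and over 4000 in the dark (the number at 1 h is not given separately). The labels do not say whether the 2 arrays of a group came from separate pools, so p-values measure the spread between these samples, which may be technical. For comparison, the same tissues were available in the dark and after 6 h of light, with 2 arrays each.

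In darkness a seedling keeps its apex closed and small, and its cotyledons hold etioplasts, plastids that await light to become chloroplasts. Light starts leaf growth and cell division at the apex and chloroplast building in the cotyledon. Auxin, a hormone made and moved in young shoot tissue, is inactivated in part by GH3 enzymes, which join it to amino acids, and acts through Aux/IAA repressor proteins.

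Signals are MAS5 values on a linear scale, scaled by the submitters to a common trimmed mean, and differences are log2 apex minus cotyledon from a limma fit, called at an adjusted p under 0.05. The 35th percentile of each array, 12.4 to 18.6 over the series, is called the floor here, and signals under it have no reliable order. Median signals were 33.4 and 31.3 in the apex and 25.2 and 27.5 in the cotyledon. Replicate arrays correlated at r = 0.926 in the apex and 0.913 in the cotyledon, and arrays of different tissues at 0.857 to 0.891 (across probe sets, which are not independent). The ratio of 3′ to 5′ signal of GAPDH, a sign of RNA integrity, was 0.832 and 1.85 in the apex and 2.31 and 3.54 in the cotyledon, and that of ubiquitin was 1.67 and 2.71 in the apex and 3.06 and 3.55 in the cotyledon. Neither overlapped between tissues, while the actin ratio did, at 7.70 and 14.1 in the apex and 9.98 and 7.86 in the cotyledon. These ratios move with every tissue difference below, and their part in the results was not tested.

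After 1 h of light, 1588 of 18237 probe sets were called (8.71%), 896 of them higher in the apex (4.91%) and 692 lower (3.79%). The 2 apex arrays lay wholly on one side of the 2 cotyledon arrays for all 1588, but the same held in 33.5% of all probe sets with the apex above and 20.8% with the cotyledon above. Of the calls, 1415 were at least 2-fold. The split depended on the scaling: as deposited, 56.4% of calls were higher in the apex, and with each array centred on its median 29.5% were, 483 higher and 1155 lower. The median difference over all probe sets was 0.16 as deposited, -0.14 after median centring and -0.0034 after quantile normalization, so single differences are best read against those values. Counts also rested on all 4 arrays, since leaving out 1 array left between 378 calls (without apex replicate 1) and 1225 (without cotyledon replicate 2), with 618 without apex replicate 2 and 648 without cotyledon replicate 1. Only 784 of the called probe sets matched 1 gene in the annotation, giving 430 genes higher in the apex and 349 lower.

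**Figure D1:**
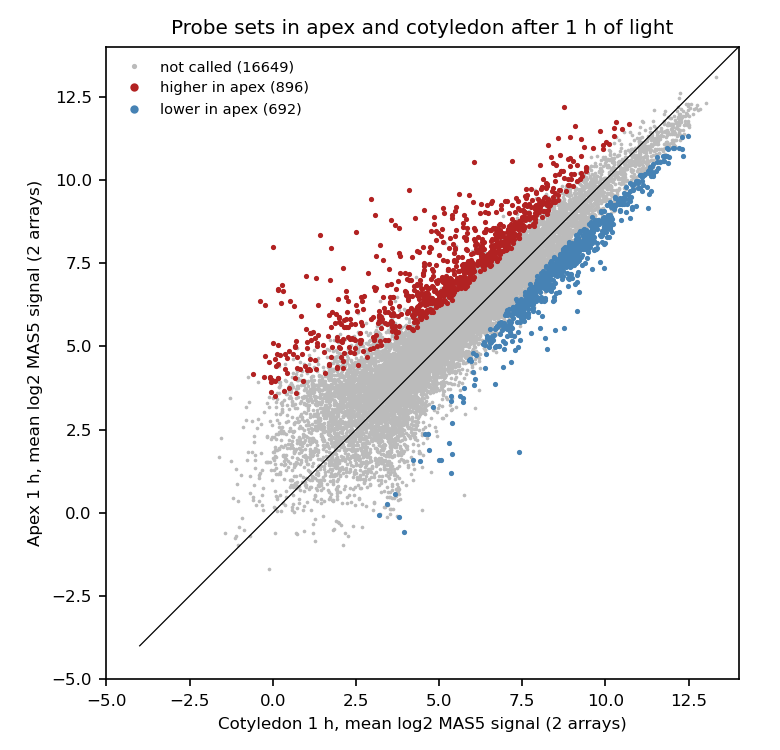
Mean log2 MAS5 signal of each tested probe set in the apex (vertical) and the cotyledon (horizontal) after 1 h of light, 2 arrays each, with equality as the line. The 896 probe sets called higher in the apex include many at low cotyledon signal, and the 692 called lower lie mostly at high signal in both tissues.

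The labels were checked against marker genes, of which few had a named probe set. CLV3, the peptide gene of the stem cells, had signals of 6.43 and 11.1 in the apex and 2.60 and 1.67 in the cotyledon, all under the floor, and PHV, a regulator of leaf polarity, had 42.1 and 34.4 in the apex and 33.9 and 21.1 in the cotyledon. Neither passed the test. LAS, a GRAS regulator of axillary meristems at organ boundaries, was higher in the apex, with 45.7 and 58.1 in the apex and 19.9 and 6.83 in the cotyledon (difference 2.14 ± 0.53 SE, adjusted p = 0.0237). That call was lost with quantile normalization, with a variance prior without trend, with the 4 arrays alone, and without apex replicate 1, apex replicate 2 or cotyledon replicate 2. The leaf primordium genes YAB3 (-0.74), YAB5 (-0.06) and JAG (0.43) were not called. Thus 1 of 6 measured apex marker genes was called. Of cotyledon markers, all 8 measured genes listed under light harvesting and photosystems and all 3 Calvin cycle genes had lower signals in the apex. Of these 11, 2 were called. Over all probe sets, 7481 of 18237 had lower signals in the apex and 3.79% were called lower. Of other cells that a slice could hold, 4 genes of stomata and trichomes were measured (SPCH -1.15, MUTE -2.40, FMA -0.42 and TRY -0.50) and 1 vascular gene (AT4G24060, 1.03), and none was called. No guard cell or endodermis gene of the lists had a named probe set. In such bulk samples, fewer cells of a type and less RNA per cell cannot be told apart.

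The largest fitted differences in favour of the apex were in genes at or near the floor in the cotyledon, so their order is not established. GH3.17, an auxin-conjugating enzyme, had 247 and 265 in the apex against 0.898 and 1.11 in the cotyledon (difference 8.00 ± 0.57, adjusted p = 4.99e-06). Since both cotyledon arrays lay under the floor, the ratio is given as at least 20.4-fold, where the floor stands in for the dim signal. BZIP61, a bZIP transcription factor, had 130 and 87.7 in the apex against 1.21 and 1.02 in the cotyledon (at least 8.54-fold). EXLA2, an expansin-like protein, had 86.9 and 78.3 in the apex against 1.46 and 1.39 in the cotyledon (at least 6.59-fold). The annotation leaves 5 others without a name. AT1G12080 had 748 and 636 in the apex against 5.13 and 11.8 in the cotyledon (at least 55.1-fold), and AT4G29030 had 613 and 407 in the apex against 4.05 and 17.2 in the cotyledon (difference 5.90 ± 0.55). AT5G42860, AT1G72290 and AT2G20515 were at least 6.05-fold, 8.08-fold and 6.33-fold higher.

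The largest fitted differences in favour of the cotyledon were all in loci that the annotation leaves unnamed, and 4 of the 8 were above the floor in both tissues. AT2G29290 had 52.2 and 42.0 in the apex against 464 and 396 in the cotyledon (difference -3.19 ± 0.31, adjusted p = 5.21e-05). AT4G17810 had 68.9 and 65.8 in the apex against 715 and 446 in the cotyledon (-3.07). AT1G80180 (-3.29) and AT1G11850 (-2.99) were also above the floor in both tissues. In AT4G37380, AT5G36160, AT1G09740 and AT4G23330 both apex arrays lay under the floor, and the cotyledon was at least 2.70-fold, 2.17-fold, 2.08-fold and 1.01-fold higher; the last is thus hardly bounded away from equality.

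**Figure D2:**
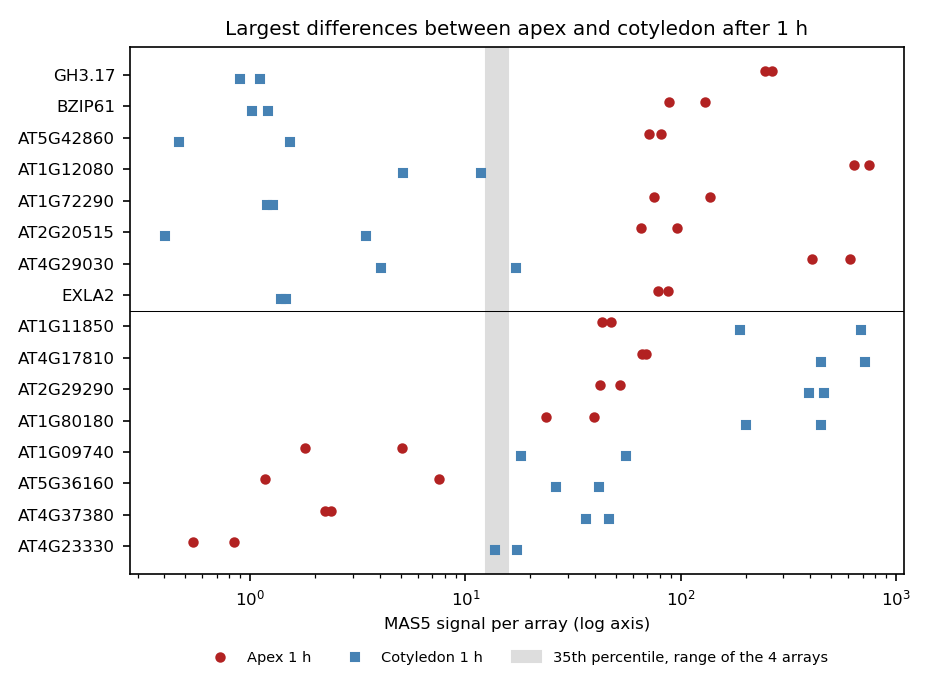
MAS5 signal on each array (log axis) for the 8 genes with the largest differences in each direction, apex as circles and cotyledon as squares, with the range of the 35th percentile shaded. The upper 8 genes have apex signals above 60 and, but for 1 array of AT4G29030, cotyledon signals under the shaded floor.

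Auxin genes included several with signal in the apex and hardly any in the cotyledon. Of 4 measured GH3 genes, 2 were higher in the apex, GH3.17 and GH3.3. Over all probe sets 4.91% were called higher. GH3.3 had 80.0 and 45.1 in the apex against 0.683 and 4.84 in the cotyledon (difference 5.05 ± 0.69, adjusted p = 0.000736, at least 4.80-fold). WES1 (1.07) and GH3.9 (-0.00) were not called. Of 6 Aux/IAA genes, IAA34 and IAA29 were higher, again beside 4.91% of all probe sets. IAA34 had 137 and 118 in the apex against 2.29 and 4.84 in the cotyledon (at least 10.2-fold), and IAA29 had 39.9 and 34.7 in the apex against 11.0 and 6.30 in the cotyledon (at least 2.97-fold). The others ran between -1.07 for IAA20 and 1.04 for IAA33. The call of IAA29 was lost with a variance prior without trend.

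In a list of auxin synthesis and kinase genes put together after the values were seen, 3 of 6 were called, so nothing is read from that count. YUC4, a flavin monooxygenase that makes auxin, had 42.7 and 41.9 in the apex against 2.19 and 2.14 in the cotyledon. WAG2, a kinase related to PINOID, had 66.7 and 86.9 in the apex against 8.09 and 0.799 in the cotyledon. HAT2, an auxin-inducible homeodomain gene, had 116 and 144 in the apex against 26.3 and 12.2 in the cotyledon (difference 2.85 ± 0.36, adjusted p = 0.000387). For YUC4 and WAG2 the apex was at least 3.38-fold and 6.08-fold higher. The type-A cytokinin response regulators RR16 (-1.15) and ARR15 (1.39) were not called.

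Most tubulin genes and some wall genes were higher in the apex. Over all probe sets 4.91% were called higher. Of 7 tubulin genes, 6 were called higher and none lower, with a median difference of 1.13 beside 0.16 over all probe sets; 3 were called after median centring, where the median was 0.84, and 2 without apex replicate 1. TUB1, a beta tubulin, had 582 and 509 in the apex against 19.2 and 28.5 in the cotyledon (difference 4.54 ± 0.30, adjusted p = 3.43e-06). TUB5 had 698 and 670 in the apex against 203 and 314 in the cotyledon, TUB7 had 730 and 692 in the apex against 339 and 243 in the cotyledon, and TUA6 had 2287 and 2218 in the apex against 1011 and 1052 in the cotyledon. The arrays of the tissues did not overlap in any of these 4, but that held for every called probe set. It also held, with the apex above, in 33.5% of all probe sets. The call of TUA6 was lost with median centring, without trend and without any 1 of the 4 arrays. TUA1 (0.82) was not called.

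Among 22 expansins and xyloglucan endotransglucosylases (XTH), enzymes and proteins that loosen or remodel the wall, 5 were higher and none lower. Over all probe sets 4.91% were called higher. XTH32 had 1572 and 1607 in the apex against 406 and 538 in the cotyledon (difference 1.77 ± 0.28), XTH16 had 764 and 863 in the apex against 346 and 329 in the cotyledon, and EXPA15 had 406 and 268 in the apex against 105 and 99.3 in the cotyledon. The median of the 22 was 0.86, or 0.40 with dim signals at the floor. With a variance prior without trend 3 were called. The call of EXPA15 was lost then, and also without apex replicate 1 or either cotyledon replicate. EXPA8 had 38.9 and 40.7 in the apex against 10.0 and 8.39 in the cotyledon and was not called (adjusted p = 0.0654).

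Other wall and cytoskeleton families were defined after the values were seen, and their counts are descriptions only. Of 9 genes for wall-sensing receptors, COBRA proteins and RALF peptides, 4 were higher: THE1 (1.49) and FER (1.13), receptor kinases that monitor the wall, COB (1.40), which orients cellulose, and RALFL34 (0.86), a signalling peptide. These 4 calls fell to 0 without apex replicate 1 and to 1 without apex replicate 2 or cotyledon replicate 1, and that of RALFL34 was also lost with the replicate block, the 4 arrays alone, median centring and any left-out array. Of 14 GH9 endoglucanases 2 were higher, 0 without either apex replicate and 1 without either cotyledon replicate, and GH9B13 had 510 and 441 in the apex against 42.9 and 19.0 in the cotyledon. Of 15 IQ-domain genes, whose products bind calmodulin, 4 were higher and 1 lower, with 1 or 2 higher and the same count lower when 1 array was left out. IQD30 had 169 and 184 in the apex against 45.4 and 58.3 in the cotyledon, while iqd21 had 84.1 and 95.7 in the apex against 339 and 365 in the cotyledon (difference -1.97 ± 0.25). Members of 1 family thus lay on both sides. Of 5 methionine sulfoxide reductases, which repair oxidised methionine, 3 were higher, none of which was left without apex replicate 1, among them MSRB5 with 323 and 132 in the apex against 21.3 and 15.8 in the cotyledon.

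Some cell division genes were higher in the apex in the deposited scaling, a result that depended on it and on single arrays. Of 6 measured mitosis genes, 3 were higher and none lower, beside 4.91% and 3.79% of all probe sets. The 3 were AUR1 and AUR2, Aurora kinases of the spindle, and BUB3.1, of the spindle checkpoint. AUR1 had 187 and 179 in the apex against 62.8 and 79.9 in the cotyledon (difference 1.37 ± 0.25, adjusted p = 0.00461). AUR2 had 89.0 and 95.0 in the apex against 31.9 and 33.1 in the cotyledon, and BUB3.1 had 104 and 89.7 in the apex against 22.3 and 41.7 in the cotyledon. Of the 3 calls, 1 was left with median centring or quantile normalization, 0 without apex replicate 1, and 1 without apex replicate 2 or without cotyledon replicate 1. AUR3 (0.33), 3xHMG-box1 (0.95) and BUB3.2 (1.02) were not called. The 1 measured replication gene of the list, PRL, which encodes a subunit of the replicative helicase, was higher (1.14, adjusted p = 0.0442), a call lost with the replicate block, with either rescaling, with no filter, without trend and without any 1 of the 4 arrays.

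A wider list of 15 spindle, chromosome and replication genes was written with values in view and includes single genes for that reason. This list repeats AUR1, AUR2, BUB3.1 and PRL from above, so their calls are counted again in it. In it 9 were higher and none lower (median 1.23), but 1 with median centring, 2 with quantile normalization and 0 to 4 when 1 array at 1 h was left out. It includes ICU2, the catalytic subunit of a replicative DNA polymerase, with 74.6 and 63.8 in the apex against 21.3 and 21.2 in the cotyledon, and FBL17, an F-box protein that removes cell cycle inhibitors, with 229 and 159 in the apex against 81.2 and 81.2 in the cotyledon. No D-type cyclin of the list had a named probe set.

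**Figure D3:**
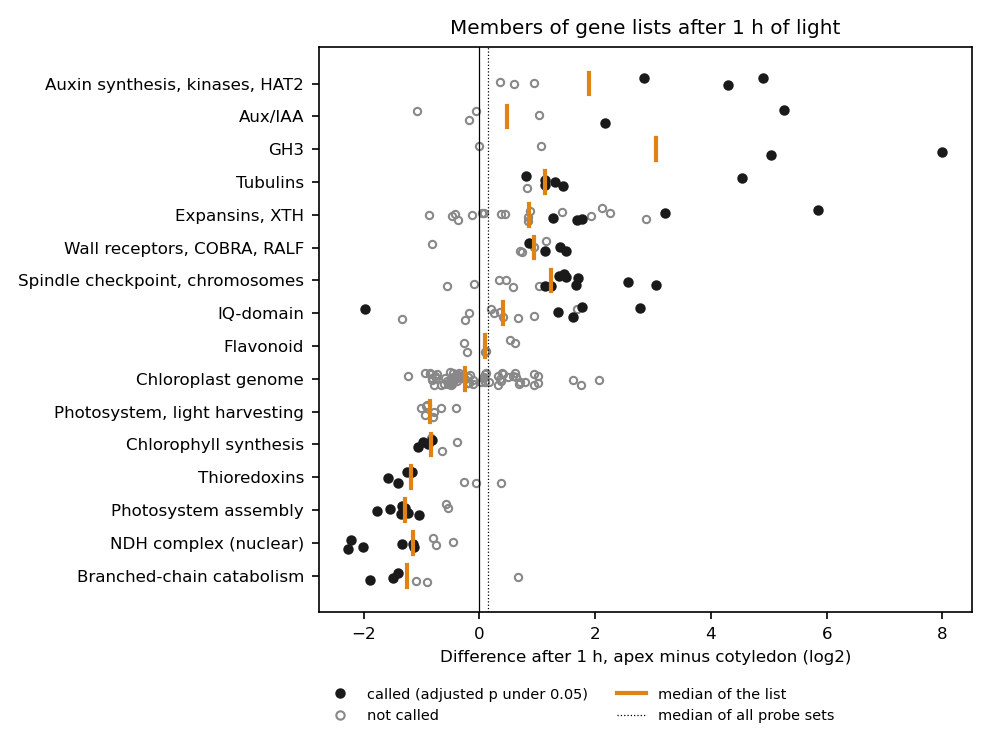
Differences after 1 h of light (log2, apex minus cotyledon) of the members of 16 gene lists, with called members filled, others open, list medians as bars and the median of all probe sets dotted. Tubulins lie between 0.80 and 4.54. The 9 nuclear NDH genes lie between -2.26 and -0.45, in a list written after the values were seen. So were the lists of auxin synthesis, wall receptors, spindle, IQ-domain, chloroplast genome, thioredoxins, photosystem assembly and branched-chain catabolism.

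A share of the nuclear genes for building and running chloroplasts was lower in the apex. Of 7 chlorophyll synthesis genes all had lower signals and 4 were called, with a median of -0.84. Over all probe sets, 7481 of 18237 had lower signals and 3.79% were called lower. HEMB1, aminolevulinate dehydratase, had 746 and 899 in the apex against 1866 and 1555 in the cotyledon (difference -1.06 ± 0.24, adjusted p = 0.0148). GSA1 (-0.98) and HEME2 (-0.82), of the shared tetrapyrrole steps, and CHLM (-0.89), of the magnesium branch, were also lower. Those 4 calls fell to 0 without apex replicate 1, without apex replicate 2 or without cotyledon replicate 1. Of 3 Calvin cycle genes PRK, phosphoribulokinase, was lower, with 2265 and 1749 in the apex against 5696 and 4004 in the cotyledon, and so was SBPASE (-1.13); RCA (-0.80) was not called, and both calls were lost without any of the same 3 arrays.

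The 8 genes listed under light harvesting and photosystems include ATPC1 (-0.66), a subunit of the chloroplast ATP synthase. None of the 8 was called, although all 8 differences were negative (-1.01 to -0.41, median -0.85). So were 7481 of 18237 over all probe sets. PSAE-1 of photosystem I had 2182 and 2054 in the apex against 5800 and 3116 in the cotyledon (adjusted p = 0.0755), and LHCB4.1, an antenna protein, had 3290 and 2949 in the apex against 7698 and 4370 in the cotyledon. The cotyledon replicates of both differed widely. None of the 69 chloroplast genome probe sets was called either, with a median of -0.25. Lipid mobilisation was represented by ICL (-0.69) and SDP1 (-0.57), neither called.

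Genes of the plastid NDH complex, which carries electrons around photosystem I, of photosystem assembly and of thioredoxins were grouped after the values were seen, and the first 2 groups name single genes for that reason. Of 9 nuclear NDH genes 6 were lower. NdhL, a subunit, had 114 and 121 in the apex against 601 and 496 in the cotyledon (difference -2.22 ± 0.21, adjusted p = 4.55e-05). NdhN had 147 and 136 in the apex against 599 and 541 in the cotyledon, and PIFI, a factor needed for NDH activity, had 162 and 158 in the apex against 876 and 674 in the cotyledon. CRR42, which the complex needs to accumulate, was lower by less (-1.33).

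Of 9 genes listed under photosystem assembly 7 were lower. The list is wider than that name, since CcdA is not an assembly factor of a photosystem. CcdA, which carries reducing power across the thylakoid, had 145 and 144 in the apex against 553 and 439 in the cotyledon (difference -1.77 ± 0.23), HCF101, an iron-sulfur cluster carrier for photosystem I, had 273 and 379 in the apex against 1008 and 871 in the cotyledon, and LPA2 had 199.6 and 244 in the apex against 574 and 546 in the cotyledon. Of 8 thioredoxin genes 5 were lower, among them ty2 with 310 and 383 in the apex against 981 and 1093 in the cotyledon, THX (-1.41), NTRC (-1.26) and TRXF2 (-1.18); 1 was left without apex replicate 1 or apex replicate 2, 2 without cotyledon replicate 1, 3 without cotyledon replicate 2 and 1 without trend. The 7 assembly and 6 NDH calls fell to between 3 and 6 and between 3 and 5 when 1 array was left out. The members TO1 (-0.06), TO2 (-0.26) and TY1 (0.37) were not called.

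Some genes known for their response to light had like signals in both tissues at 1 h, and others did not. Of 4 measured light signalling genes, IAA29 was called higher in the apex (2.16), a call lost with a variance prior without trend. FHL had a difference of 1.34 and was not called (adjusted p = 0.503). The remaining members, HYH and AT3G52740, had small differences. HYH, a bZIP factor of light signalling, had 189 and 185 in the apex and 165 and 267 in the cotyledon (difference -0.17, 95% interval -0.95 to 0.62). GI, a clock protein, had 766 and 634 in the apex and 706 and 769 in the cotyledon (-0.58 to 0.42). None of 6 flavonoid genes was called; UGT78D2, a flavonol and anthocyanin glycosyltransferase, had 569 and 691 in the apex and 561 and 618 in the cotyledon (-0.66 to 0.84). AT3G52740 had 175 and 215 in the apex and 166 and 218 in the cotyledon (-0.86 to 0.92). A missed threshold does not show equality, and these intervals bound the differences that the arrays leave possible.

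Set beside the other times, which share no arrays with it, the 1588 calls at 1 h compare with 3077 in the dark (16.9%; 8.52% higher in the apex and 8.36% lower) and 604 after 6 h (3.31%; 2.3% higher and 1.01% lower). These counts do not show that the size of the tissue difference changed, since the 1 h count was 378 without apex replicate 1. Of the 896 probe sets higher in the apex at 1 h, 485 were also higher in the dark (54.1% of the 1 h calls and 31.2% of the dark calls) and 212 after 6 h (23.7% and 50.5%). Of the 692 lower, 453 were also lower in the dark (65.5% and 29.7%) and 92 after 6 h (13.3% and 50%). TUB1 was among those higher at all 3 times, at 4.49, 4.54 and 3.33 in order of time. Apex replicate 2 at 6 h had the highest 3′ to 5′ ratios of the 16 arrays, 5.40 for GAPDH, 30.4 for actin and 7.04 for ubiquitin. The 2 apex arrays at 6 h correlated at r = 0.883. The part of RNA integrity in the 6 h counts and in the changes against 6 h was not tested.

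The test of the change itself, the 1 h difference minus the dark difference, called 186 probe sets (1.02%), 48 positive (0.263%) and 138 negative (0.757%), and 67 of these were also called at 1 h. XTH32 changed by 2.52 ± 0.39, with dark signals of 151 and 152 in the apex and 219 and 297 in the cotyledon, and AUR1 by 1.72 ± 0.35, with 82.6 and 77.2 in the apex and 118 and 87.8 in the cotyledon in the dark. For GH3.3 the fitted change was 4.69 ± 0.98 (adjusted p = 0.0355), but its cotyledon signals at 1 h were under the floor, and with dim signals at the floor it was 1.91 and no longer called (adjusted p = 0.0930). The dark signals of GH3.3 were 55.6 and 44.5 in the apex and 36.3 and 41.8 in the cotyledon, and its 6 h signals 62.6 and 40.6 in the apex and 32.9 and 29.6 in the cotyledon. Among these arrays the 2 of cotyledon at 1 h were the only low ones.

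A list of 6 genes was put together after the values were seen, under the breakdown of branched-chain amino acids. It is wider than that pathway, since BCAT4 and D2HGDH are not enzymes of its main steps. MCCA, MCCB, IVD and ETFQO had a called negative change (against 0.757% of all probe sets), while D2HGDH and BCAT4 did not. In the list 4 genes were called higher in the apex in the dark and 3 lower at 1 h, or 1 without either apex replicate. MCCA, a subunit of methylcrotonyl-CoA carboxylase, had 1583 and 1907 in the apex against 276 and 296 in the cotyledon in the dark. After 1 h it had 155 and 109 in the apex against 673 and 345 in the cotyledon, and after 6 h 39.9 and 34.2 in the apex against 31.7 and 29.0 in the cotyledon. Its difference was therefore 2.60 in the dark, -1.89 at 1 h and 0.29 at 6 h, with a change of -4.49 ± 0.42 from dark to 1 h (adjusted p = 0.000269). IVD, isovaleryl-CoA dehydrogenase, had 790 and 997 in the apex against 247 and 298 in the cotyledon in the dark and 106 and 122 in the apex against 407 and 250 in the cotyledon at 1 h.

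In all, 10 of 10269 tested named genes were called lower in the apex at 1 h and higher in the dark, and 1 was the reverse. Over all 18237 probe sets the counts were 22 and 1. Besides MCCA and IVD the 10 include PPDK, pyruvate orthophosphate dikinase, with 97.1 and 128 in the apex against 403 and 272 in the cotyledon at 1 h and 651 and 778 in the apex against 175 and 303 in the cotyledon in the dark. CCL had 292 and 201 in the apex against 634 and 651 in the cotyledon at 1 h, and its dark difference was 1.11. The others were AT1G21680, AT1G60010, AT2G30600, AT3G26580, AT4G27652 and AT5G18600, with 1 h differences between -2.92 and -1.12. The reverse case was Hsp70-2, a chaperone, at 1.14 after 1 h and -1.29 in the dark. Its 1 h call was lost with quantile normalization, median centring, a variance prior without trend and the 4 arrays alone. Without trend, the 1 h calls of IVD, PPDK, AT1G21680, AT2G30600 and AT3G26580 were lost as well. That of AT2G30600 was also lost with the 4 arrays alone.

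NdhL was called lower in the apex in the dark and at 1 h, with dark signals of 269 and 286 in the apex against 539 and 447 in the cotyledon (change from dark to 1 h -1.39 ± 0.30, adjusted p = 0.0413). At 6 h it had 328 and 330 in the apex against 560 and 581 in the cotyledon and was not called (adjusted p = 0.0572), nor was its change between 1 h and 6 h (adjusted p = 0.134). Against 6 h, 8 probe sets differed (0.0439%; 0.0329% positive and 0.011% negative; 1829 at an unadjusted p under 0.05). UGT85A2, a glycosyltransferase, was the named one called also at 1 h. It had 131 and 187 in the apex against 22.1 and 24.3 in the cotyledon at 1 h, and 60.4 and 42.8 in the apex against 72.0 and 72.5 in the cotyledon at 6 h (change 3.27 ± 0.47, adjusted p = 0.0255). That call was lost with quantile normalization, without trend, without the arrays that stood apart (apex replicate 2 in the dark and at 6 h), and without apex replicate 1, apex replicate 2 or cotyledon replicate 1.

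**Figure D4:**
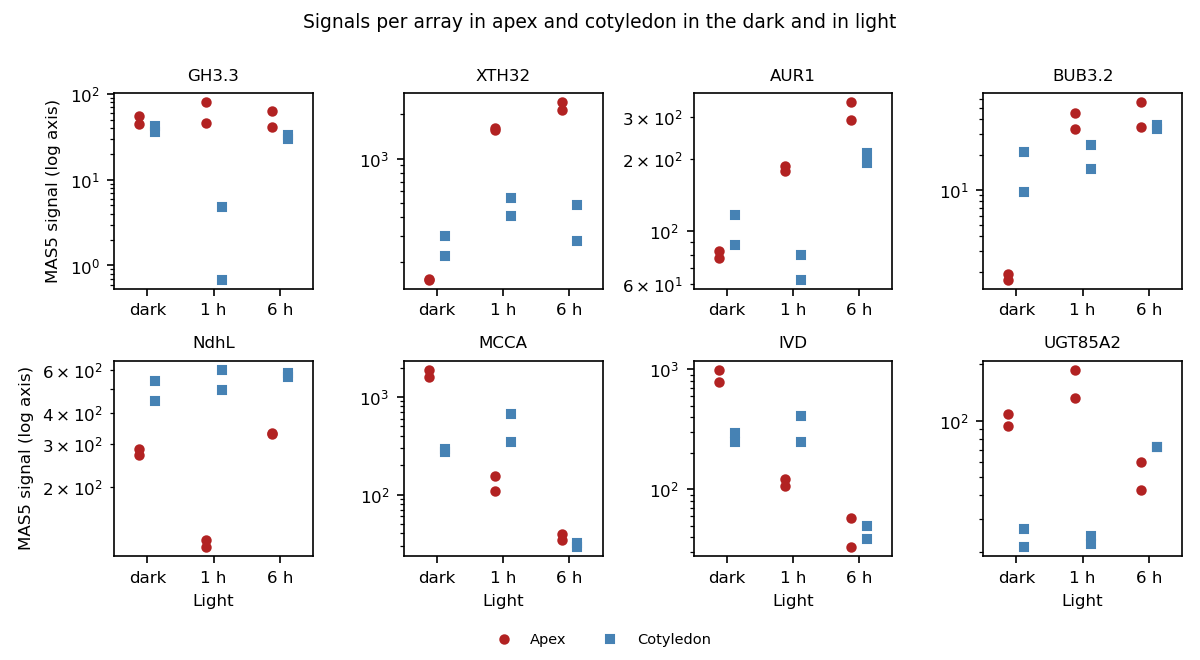
MAS5 signal per array (log axis, scale set per gene) in the dark and after 1 h and 6 h of light, apex as circles and cotyledon as squares, 2 arrays each. MCCA and IVD lie higher in the apex in the dark and lower at 1 h, while GH3.3 is low on the cotyledon arrays at 1 h alone.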

How the data were processed

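RNA of shoot apex and cotyledon pools was hybridised to Affymetrix ATH1 arrays. Per the submitters' processing notes the tools were GCOS and MAS5, with versions and roles not given in the sources used here. The deposited values are linear signal intensity; a trimmed mean (2% at each end) of about 100.01 on every array shows the scaling. They were used as deposited and taken to log2 with no pseudocount. Of 22746 probe sets that are no controls, 18237 were tested, those whose signal passed the 35th percentile of the array in 2 or more of the 16 arrays, and 4509 were not. limma 3.58.1 (R 4.3.3) fitted 10 group means on all 16 arrays (6 residual degrees of freedom, trended prior), with Benjamini-Hochberg adjustment over all tested probe sets. The number of arrays limits the precision; the median standard error of the 1 h difference was 0.42. The fit was tested on simulated data.

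Names came from the platform table through RefSeq (TAIR10.1): 13513 probe sets matched 1 gene, 503 several and 8730 are unnamed here. A gene with several probe sets is given by its brightest on average; in 103 such genes none had opposite calls. The rule named the 8 largest differences each way, up to 4 called members of each list, up to 6 genes each way of each change between times, and uncalled members with values; the 11 genes of opposite direction were added after the values were seen. Members and lists were chosen with earlier results of these data known. Lists of auxin synthesis, wall receptors, GH9, IQ-domain, methionine sulfoxide reductase, spindle and chromosome, NDH, photosystem assembly, thioredoxin, chloroplast genome and branched-chain genes were written after the values were seen, and some name single genes because they were called. Alternatives covered scaling, offset, filter, variance prior, samples fitted, replicate block and leaving out arrays. A planned promoter motif search was not run, since no promoter sequences were used here.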

Additional observations from a re-analysis of the deposited data

Results flagged for a closer look

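The results here are genes whose tissue difference at 1 h departed from that at another time by the test of the change itself (limma, adjusted over all probe sets). Against the dark, 186 of 18237 probe sets changed (1.02%), and named genes or list members among them are given with the log2 change. Fitted positive changes were those of AT4G16970 (4.85), GH3.3 (4.69), AT1G06000 (4.17), BUB3.2 (3.99), AT4G29030 (3.96), AT1G74940 (2.61), XTH32 (2.52), CXE18 (2.50), Hsp70-2 (2.43) and AUR1 (1.72). With dim signals at the floor, 24 of the 29 dark changes given here were still called and 5 were not: AT1G06000 (1.02), AT1G14120 (-0.16), BUB3.2 (1.22), EXPA8 (-3.25) and GH3.3 (1.91), whose fitted sizes therefore rest on signals without reliable order. AT4G16970, AT4G29030 and AT5G36160 were still called, at 2.82, 3.15 and -2.40. For AT1G06000 the 1 h difference itself was -0.26: it had 1.87 and 1.84 in the apex against 36.6 and 43.6 in the cotyledon in the dark, and 404 and 461 in the apex against 506 and 531 in the cotyledon at 1 h. For BUB3.2 the dark apex arrays, at 1.91 and 1.71, lay under the floor.

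Fitted negative changes were those of AT5G36160 (-4.76), EXPA8 (-4.62), MCCA (-4.49), AT5G18600 (-4.23), AT1G14120 (-4.01), AT2G30600 (-3.46), IVD (-3.20), PPDK (-3.19), AT1G21680 (-2.98), MCCB (-2.90), MSRB9 (-2.70), ETFQO (-2.56), CCL (-2.52), ATG8B (-2.51), AT4G27652 (-2.47), AT3G26580 (-2.16), AT2G29290 (-2.09), AT1G60010 (-2.08) and NdhL (-1.39). MCCB, the other subunit of methylcrotonyl-CoA carboxylase, had 398 and 366 in the apex against 902 and 728 in the cotyledon at 1 h, and 1616 and 2094 in the apex against 525 and 523 in the cotyledon in the dark; its 1 h difference alone was not called (adjusted p = 0.0743). ETFQO, which takes electrons from this pathway to the respiratory chain, was likewise not called at 1 h (-0.90). Against 6 h the one such gene was UGT85A2 (3.27), a call lost without either apex replicate.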

How the results depend on the processing

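The count of 1 h calls (1588) stayed between 1418 and 1920 under quantile normalization, median centring, an offset of 16, other filters, dim signals raised to the floor, fits of 4 or 12 arrays and without 2 arrays that stood apart (apex replicate 2 in the dark and at 6 h), and was 628 with a variance prior without trend and 378 to 1225 leaving out 1 array. Against the dark (186) it was 285 with quantile normalization, 286 with log2(signal + 16), 15 without trend and 64 to 283 leaving out 1 array. Against 6 h (8) it was 30 with log2(signal + 16), 35 with dim signals raised, 0 without trend (1554 at an unadjusted p under 0.05) and 0 to 97 leaving out 1 array. The cause was not tested, beyond that leaving out an array leaves fewer samples. Most alternatives could not change the direction of a called gene. The tissues did not overlap in any called probe set, so an offset or leaving out 1 array at 1 h keeps the sign. Other filters, variance priors, sets of arrays and the replicate block leave the differences themselves as they were. Direction was thus put to a test only by rescaling and by raised dim signals. None of 112 named called genes changed direction under the alternatives it was tested in (107 of them passed the stricter filter). Of them, 23 were no longer called with median centring, 16 with quantile normalization, 59 without trend, and 74, 63, 56 and 34 without apex replicate 1, apex replicate 2, cotyledon replicate 1 and cotyledon replicate 2. The replicate numbers do not pair the samples (correlation of same-number deviations 0.01 between the 1 h groups, -0.13 to 0.12 over 15 pairs of groups); with a replicate block 1538 probe sets were called at 1 h, 192 against the dark and 10 against 6 h. Some alternatives (dim signals raised for the changes, and other scalings of the dark and 6 h differences) were chosen after seeing the data. Signals under the floor bound what low genes can show.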
